A study of Mus musculus with 15 samples.

Results

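The hearts of mice given activated protein C (aPC) were compared with the hearts of mice given rivaroxaban, 1 day after ischemia and reperfusion. The comparison takes 2 aPC libraries, aPC-791 and aPC-792, against 2 rivaroxaban libraries, Riva-313 and Riva-319, out of 11 libraries in the deposited table and 15 samples in the labels. Of the 16658 genes in the table, 13541 reached a log2 CPM (log2 of reads of a gene scaled to library size) of at least 0 in at least 3 of the 11 libraries, and these were tested. All mice were male wild-type C57BL/6 of 8 to 10 weeks. The aPC mice received 1 mg/kg aPC 30 min before surgery, and the rivaroxaban mice received 3 mg/kg rivaroxaban for 7 days. Ischemia came from ligation of the left anterior descending artery (90 min), it was followed by reperfusion (24 h), and the drugs were restarted 2 h after surgery. The drugs therefore also differ in dose and in the length of pretreatment, and these cannot be told apart from the drug. RNA came from tissue that held the infarct and the muscle around it. The other groups are shown where they place a value: dabigatran (10 mg/kg for 7 days, 2 libraries), untreated (2 libraries) and sham (3 libraries). The labels give one description of the surgery for every mouse, and untreated and sham are therefore only the names that the labels use.

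Activated protein C is a natural anticoagulant protease, formed on endothelium when thrombin bound to thrombomodulin cleaves protein C. It inactivates the coagulation cofactors Va and VIIIa, and it also signals to cells through the endothelial protein C receptor and protease-activated receptors. Rivaroxaban is an oral drug that blocks the active site of factor Xa. In a reperfused heart, neutrophils and monocytes enter the injured muscle, resident macrophages clear debris, and heart muscle cells lose part of their oxidative metabolism.

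Reads on listed genes numbered from 26629925 to 32108787 in the 4 libraries compared. Heart muscle markers of the labelled tissue were abundant in all of them, with a summed level of 100836 and 104703 CPM in the aPC hearts and 83417 and 89024 CPM in the rivaroxaban hearts. The aPC libraries stood apart in a noncoding transcript. Gm42418, which overlaps ribosomal RNA sequence, took 6.78% and 6.73% of the reads on listed genes in the aPC libraries, against 1.51% and 1.21% in the rivaroxaban libraries and 0.997% to 2.09% over all 9 libraries without aPC. The SD of the log2 difference between the libraries of a pair was 0.40 for aPC, 0.31 for rivaroxaban and 0.79 for untreated. The labels name no batch, day or pairing, and nothing in them says how the libraries of a group were separated, so the p-values measure the spread between these libraries. In bulk tissue, fewer cells of a type and less RNA per cell cannot be told apart.

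The promoters of genes that the results below turn on are shown first. They belong to called members of the resident macrophage list, which had the largest share of called members of any list, and to the pair of named genes with the largest rises. Sequences are from RefSeq on build GRCm38.p6, 250 bases before to 50 bases after the start, written 5′ to 3′ on the strand of the gene. Capitals mark GAGGAA or its reverse complement TTCCTC, the purine-rich core bound by PU.1 and related Ets factors, which was searched on both strands and overlaps no other motif here. Of 32851 mouse promoters of this length in the table, 28.3% held it.
Cbr2 (chr11:120731972-120732271, minus strand): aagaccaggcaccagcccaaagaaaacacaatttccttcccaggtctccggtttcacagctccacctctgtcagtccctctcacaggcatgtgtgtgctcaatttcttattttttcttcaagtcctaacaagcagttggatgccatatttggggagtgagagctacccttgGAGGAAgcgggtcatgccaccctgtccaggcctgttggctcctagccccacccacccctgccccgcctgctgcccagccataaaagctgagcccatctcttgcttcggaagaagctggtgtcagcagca
C1qc (chr4:136892865-136893164, minus strand): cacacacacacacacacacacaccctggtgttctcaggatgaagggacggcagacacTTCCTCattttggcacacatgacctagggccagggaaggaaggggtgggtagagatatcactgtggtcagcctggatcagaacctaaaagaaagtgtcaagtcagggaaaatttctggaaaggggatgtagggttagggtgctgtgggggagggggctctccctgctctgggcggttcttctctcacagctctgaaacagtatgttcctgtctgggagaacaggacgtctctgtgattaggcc
C1qb (chr4:136886151-136886450, minus strand): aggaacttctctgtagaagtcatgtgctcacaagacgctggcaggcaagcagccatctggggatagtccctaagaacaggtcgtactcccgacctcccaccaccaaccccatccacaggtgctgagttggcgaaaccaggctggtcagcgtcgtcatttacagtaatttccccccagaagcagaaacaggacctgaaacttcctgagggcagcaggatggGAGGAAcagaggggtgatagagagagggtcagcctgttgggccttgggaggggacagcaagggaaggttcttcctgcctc
Dmkn (chr7:30763506-30763805, plus strand): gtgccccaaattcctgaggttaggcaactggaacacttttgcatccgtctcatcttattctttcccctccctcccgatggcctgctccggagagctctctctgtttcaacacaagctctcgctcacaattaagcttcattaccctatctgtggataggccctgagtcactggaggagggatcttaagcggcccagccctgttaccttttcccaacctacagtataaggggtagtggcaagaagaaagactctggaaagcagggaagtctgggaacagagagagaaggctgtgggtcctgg
Sprr2a2 (chr3:92250397-92250696, plus strand): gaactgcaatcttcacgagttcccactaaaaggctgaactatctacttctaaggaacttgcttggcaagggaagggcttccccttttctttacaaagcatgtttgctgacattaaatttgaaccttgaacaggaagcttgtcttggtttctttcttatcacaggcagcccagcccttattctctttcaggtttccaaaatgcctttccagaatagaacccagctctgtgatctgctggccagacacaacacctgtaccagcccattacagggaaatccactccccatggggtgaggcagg
The 3 macrophage promoters each held 1 copy of the core. The promoters of Dmkn and Sprr2a2 held none. No promoter entry matched the symbols C1qa, Kcnt1 or Olfr78, and Dmkn had 3 entries in the table, of which the first is printed.

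More genes were lower than higher in aPC hearts. At an adjusted p under 0.05 (limma, Benjamini-Hochberg over 13541 genes), 28 genes were higher in aPC hearts, which is 0.207% of the genes tested, and 180 were lower, which is 1.33%. A gene that passed is called in what follows. The shares of 0.207% and 1.33% are the reference for each count of called list members below. The median log2 fold change over all tested genes was 0.02 and the median standard error was 0.23. At an unadjusted p under 0.05, 1358 genes were higher and 1478 were lower. Of the called genes, 18 of the 28 higher and 128 of the 180 lower ones differed by more than 2-fold. In 128 of the 180 lower genes both aPC libraries lay below all other 9 libraries, and in 65 both rivaroxaban libraries lay above all other 9. Among the 28 higher genes, both aPC libraries lay above all others in 14, and both rivaroxaban libraries lay below all others in 9. Over all 13541 tested genes, both aPC libraries lay below all others in 8.29% and above in 8.28%, and both rivaroxaban libraries lay above all others in 5.11% and below in 4.19%. The called genes were selected for the difference between these 2 pairs, so their counts are a description only.

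The count rests on few libraries. It was 14 without aPC-791, 12 without aPC-792, 11 without Riva-313 and 1 without Riva-319, when the remaining library of the pair was assumed to vary like the other groups. It was 69, 43 and 86 without sham libraries 003, 006 and 007. The untreated pair, whose spread was the widest, enters the shared estimate of error: without Cont_17 the count was 1185, without Cont_19 it was 1198, and without both it was 1195 (343 higher and 852 lower). A fit to the 4 aPC and rivaroxaban libraries alone called 1947 genes, 779 higher and 1168 lower.

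**Figure D1:**
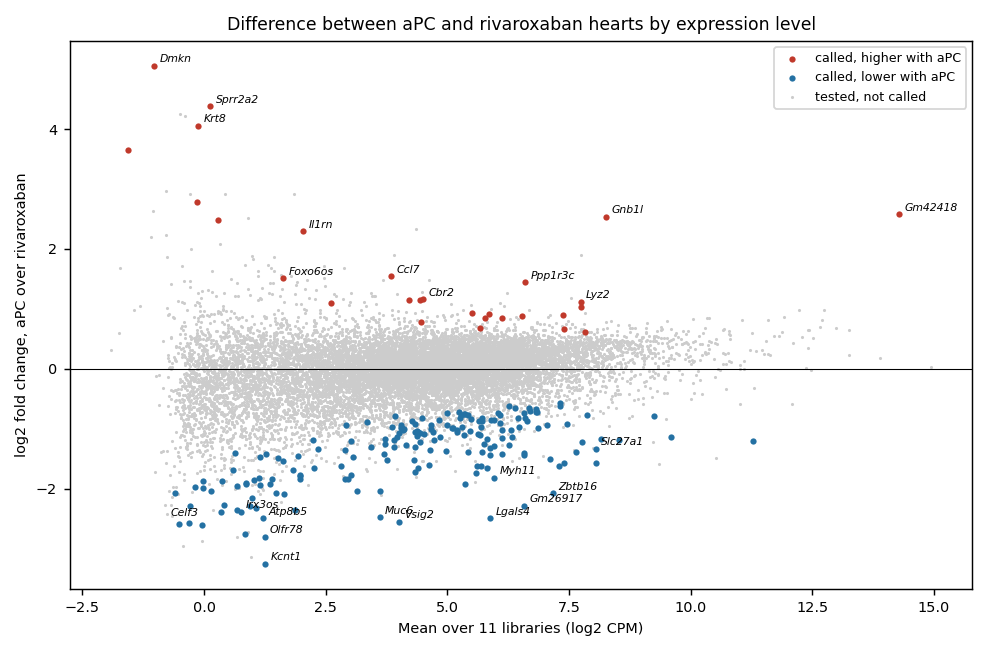
Each point is a tested gene, with its mean over the 11 libraries in log2 CPM on the horizontal axis and the log2 fold change of aPC over rivaroxaban on the vertical axis. The 28 genes called higher (red) and the 180 called lower (blue) lie at all expression levels, and the uncalled genes are grey.

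The largest rise was that of Dmkn, which encodes dermokine, a secreted protein of epidermis and other epithelia. Dmkn read 2.89 and 1.63 log2 CPM in aPC hearts, against -2.87 and -2.72 in rivaroxaban hearts. The aPC hearts were also above the dabigatran hearts, at 0.40 and 0.22, while untreated and sham hearts lay between -3.32 and -1.38. The log2 fold change of aPC over rivaroxaban was 5.06 ± 0.58 (SE, adjusted p = 0.00462). It rests on 254 reads in the aPC pair and 5 in the rivaroxaban pair, a ratio of 65.5 per read sequenced with an exact interval of 27.7 to 203.4 that covers counting error only. Sprr2a2, a small proline-rich protein of cornified epithelium, read 2.84 and 2.11 log2 CPM in aPC hearts, against -2.04 and -1.76 in rivaroxaban hearts. Its log2 fold change was 4.38 ± 0.45 (adjusted p = 0.0037), and its reads may be split with near-identical copies of the Sprr2a family. Untreated hearts resembled rivaroxaban hearts in this gene, at -2.19 and -2.27, and dabigatran hearts, at 2.30 and 1.33, lay close to aPC hearts. Dmkn lost its call without aPC-791, Riva-313 or Riva-319, and Sprr2a2 without Riva-319.

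Krt8 was the call in the list of markers of mesothelium, the epithelial sheet that covers the heart. This keratin of simple epithelia read 4.36 and 2.35 log2 CPM in aPC hearts, against -0.30 and -1.10 in rivaroxaban hearts, and the groups did not overlap. Its log2 fold change was 4.05 ± 0.85 (adjusted p = 0.0486), and the call was kept in 9 of 20 alternative fits. It was lost without Dabi-202, Riva-313, Riva-319 or any 1 sham library, and the gene fell under the filter without aPC-791, aPC-792 or Dabi-204. It was also lost with library totals that leave out Gm42418, with a robust prior, with limma-voom on the recovered reads, and after correction for gene length and GC content, where the log2 fold change was 4.05. Of 5 tested members of the mesothelium and epicardium list, Krt8 was called higher and none was called lower, with a list median of 4.05 against 0.02 over all tested genes. Some members passed the filter on low values only with both aPC libraries included, so this median is a description only. Without aPC-791, 3 members were tested (median 2.09), and without aPC-792 also 3 (median 3.73). With at least 2 log2 CPM in 3 libraries required, 1 member was left, at a log2 fold change of -0.00. Without both untreated libraries 3 members were called, in a fit that called 343 of 13410 tested genes higher and 852 lower. Krt18 (log2 fold change 2.91 ± 0.66, adjusted p = 0.0624) and Krt19 (4.21 ± 0.99, adjusted p = 0.067) did not pass, nor did Msln, which encodes mesothelin (4.26 ± 1.56, adjusted p = 0.164). Wt1, a transcription factor of the epicardium, had a log2 fold change of -0.00 ± 0.33.

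Of the markers that fell under the filter on low values, Upk3b read 3.18 and 1.97 log2 CPM in aPC hearts and -1.52 and -3.93 in rivaroxaban hearts. Upk1b read 3.32 and 1.67 in aPC hearts and -0.18 and -3.93 in rivaroxaban hearts, and Lrrn4 read 1.59 and 0.84 against -2.04 and -3.02. The value -3.93 is the level of a gene with no read. The summed level of all 8 markers was 99.95 CPM in aPC-791 and 33.1 CPM in aPC-792, against 11.99 and 10.8 CPM in the rivaroxaban hearts. It was 11.4 and 18.4 CPM in dabigatran, 29.1 and 35.1 CPM in untreated and 10.1 to 15.3 CPM in sham hearts. The sum in aPC-792 lay between those of the 2 untreated hearts. Of the aPC pair, aPC-791 was the higher in every one of these 8 markers. How much surface tissue each sample held is not in the labels, and its part in these differences was not tested.

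**Figure D2:**
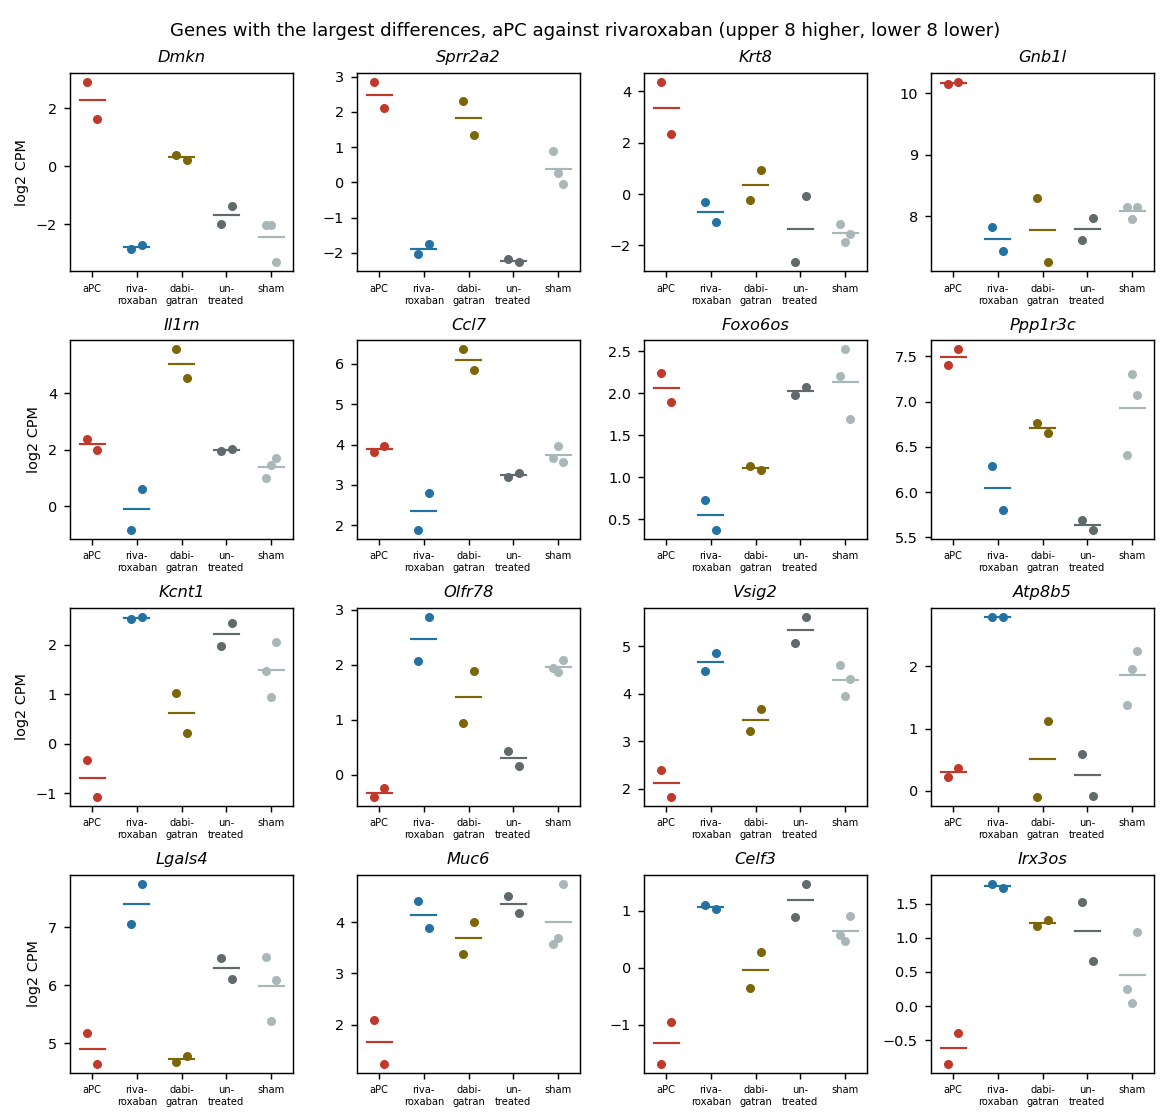
Each panel gives 1 gene, with a point per library, a bar at the group mean, and log2 CPM on the vertical axis. The upper 8 genes are higher and the lower 8 are lower in aPC hearts (red) than in rivaroxaban hearts (blue), with dabigatran, untreated and sham hearts to their right.

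Of 15 tested markers of resident macrophages, the long-lived phagocytes of the heart, 4 were higher in aPC hearts (26.7%) and none was lower. Over all tested genes 0.207% were called higher and 1.33% lower. The list median was 0.73. Cbr2, a carbonyl reductase found in cardiac resident macrophages, read 5.78 and 5.44 log2 CPM in aPC hearts, against 4.58 and 4.32 in rivaroxaban hearts (log2 fold change 1.16 ± 0.19, adjusted p = 0.0243). Sham hearts, at 5.0 to 5.25, lay nearest to aPC hearts in this gene, and untreated hearts were lowest at 2.92 and 2.95. The remaining called members, C1qa, C1qb and C1qc, encode the chains of C1q, the complement component that opens the classical pathway. C1qa read 6.56 and 6.51 log2 CPM in aPC hearts, against 5.63 and 5.61 in rivaroxaban hearts, a log2 fold change of 0.91 ± 0.18 (adjusted p = 0.0379). C1qb and C1qc both had a log2 fold change of 0.85, with standard errors of 0.17 and 0.15. For each C1q gene the aPC libraries were above all other 9 libraries.

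The other resident macrophage markers did not pass. Timd4, a phosphatidylserine receptor, had a log2 fold change of 1.63 ± 0.48 (adjusted p = 0.117). Vsig4, a complement receptor, had 0.82 ± 0.31 (adjusted p = 0.171). Csf1r, the receptor for the macrophage growth factor, had 0.25 ± 0.18, and the scavenger receptor gene Cd163 had 0.07 ± 0.38. In 12 of the 15 markers the aPC libraries lay above the rivaroxaban libraries without overlap, where 33.3% of all tested genes did so. The 15 markers summed to 976 and 912 CPM in aPC hearts, 745 and 628 CPM in rivaroxaban hearts, 614 and 479 CPM in untreated hearts and 812 to 928 CPM in sham hearts. All 4 calls were lost without any 1 of the 4 aPC and rivaroxaban libraries and without sham 006. A single call was left without sham 003, and 2 were left with quantile normalization. After correction for gene length and GC content 2 were left, and the list median was 0.61.

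The complement list of 16 tested genes held the same 3 C1q genes as its only calls, with a median of 0.25. C4b, a classical pathway component, had a log2 fold change of -0.96 ± 0.28 and C3 had -0.10 ± 0.18. Among 15 tested markers of monocytes and recruited macrophages, Lyz2 was called higher and none lower (median 0.44). Lyz2, the lysozyme of myeloid cells, read 8.53 and 8.46 log2 CPM in aPC hearts and 7.30 and 7.45 in rivaroxaban hearts. Its log2 fold change was 1.12 ± 0.19 (adjusted p = 0.0247), and its reads may be split with its near-identical neighbour Lyz1. Ccr2, the chemokine receptor that brings monocytes out of bone marrow, had a log2 fold change of -0.41 ± 0.34, and Ly6c2 had 0.33 ± 0.32. The calls in both lists were lost without aPC-791, aPC-792, Riva-313, Riva-319 or sham 006, and those of the C1q genes also without sham 003. C1qa lost its call without sham 007 as well. With quantile normalization Lyz2, C1qa and C1qb lost their calls. After correction for gene length and GC content C1qa and C1qb lost theirs.

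All 13 tested neutrophil genes had a positive log2 fold change with a median of 1.36, but none was called, and 5 passed at an unadjusted p under 0.05. S100a9, a subunit of calprotectin, read 5.24 and 3.76 log2 CPM in aPC hearts, against 1.78 and 2.56 in rivaroxaban hearts (2.33 ± 0.57, adjusted p = 0.0787). Its partner S100a8 read 4.59 and 3.14 in aPC hearts and 1.37 and 2.57 in rivaroxaban hearts (1.90 ± 0.55, adjusted p = 0.114). Both genes were higher still in dabigatran hearts, at 8.17 and 6.78 for S100a9. Lcn2, which encodes lipocalin 2, overlapped between the groups, with 8.64 and 7.29 in aPC hearts and 7.97 and 7.57 in rivaroxaban hearts. Of the aPC pair, aPC-791 was the higher in all 13 genes. The summed level of the 14 listed genes in the table, of which Ly6g fell under the filter, was 534 CPM in aPC-791 and 210 CPM in aPC-792, against 277 and 247 CPM in rivaroxaban hearts. The sums of the groups overlapped, but Lcn2 made up most of the sum in each of these libraries, so they say little of the other members.

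Among inflammatory signals, Il1rn and Ccl7 were called higher in aPC hearts. Il1rn, the antagonist of the interleukin 1 receptor, read 2.37 and 2.00 log2 CPM in aPC hearts, against -0.83 and 0.61 in rivaroxaban hearts (2.29 ± 0.47, adjusted p = 0.0439). Untreated hearts, at 1.97 and 2.03, were close to aPC hearts, so that the rivaroxaban pair stood lowest of all groups, and dabigatran hearts were highest at 5.55 and 4.54. Ccl7, a chemokine that attracts monocytes, read 3.81 and 3.96 log2 CPM in aPC hearts, against 1.90 and 2.79 in rivaroxaban hearts (1.55 ± 0.29, adjusted p = 0.0329), where rivaroxaban was again lowest. It was the only call among 15 tested chemokines, whose median was 0.53, and Il1rn was the only call among 13 tested interleukin 1 and inflammasome genes, whose median was 0.05. Cxcl3, a neutrophil attractant, had the largest log2 fold change of the chemokines, 2.91 ± 0.67 (adjusted p = 0.0628). Il1b, the cytokine that Il1rn opposes, had 1.69 ± 0.45 (adjusted p = 0.0903). None of 18 tested NF-kB target genes was called (median 0.39, 4 higher and 0 lower at an unadjusted p under 0.05). Il1rn and Ccl7 lost their calls with limma-voom, and Il1rn also with the stricter filter on low values and the larger offset. Both calls were lost without any 1 of aPC-791, aPC-792, Riva-313, Riva-319 and the sham libraries 003, 006 and 007, and after correction for gene length and GC content, where the log2 fold changes were 2.31 for Il1rn and 1.31 for Ccl7.

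**Figure D3:**
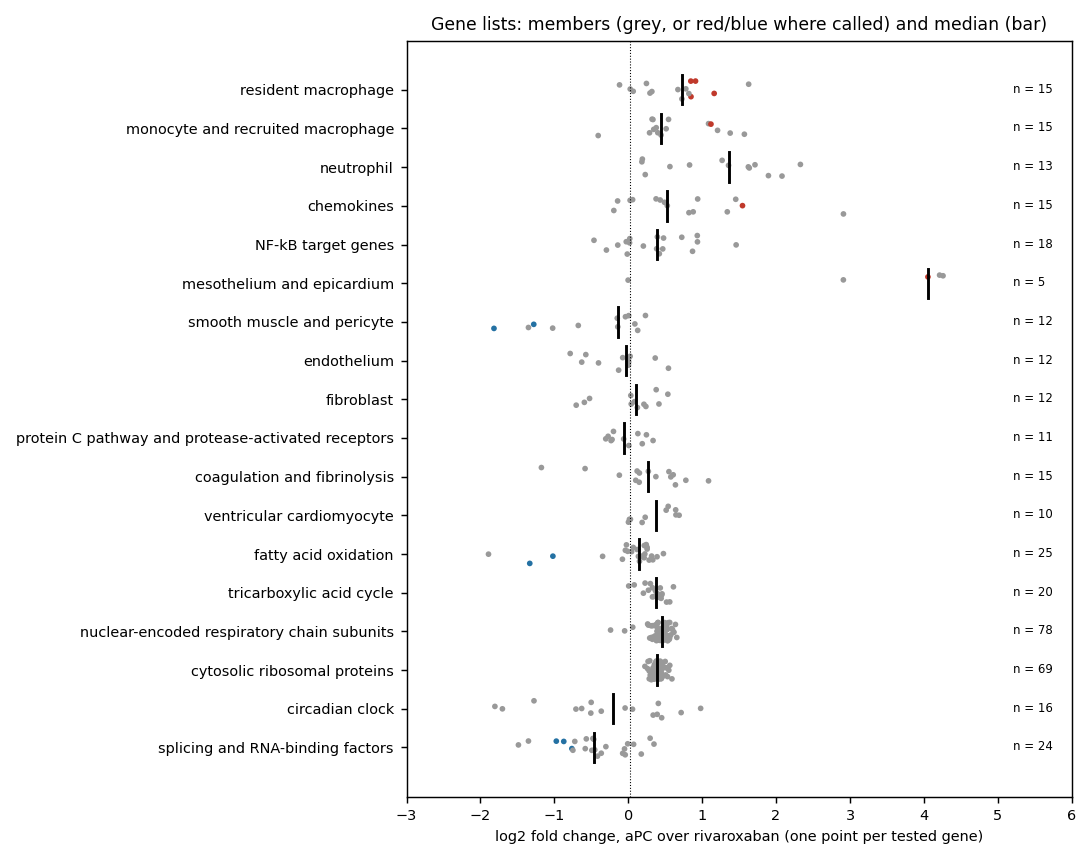
Each row is a gene list and each point the log2 fold change of aPC over rivaroxaban for 1 tested member, with called members in red (higher) or blue (lower). Black bars are list medians and the dotted line is the median of all 13541 tested genes, 0.02. The neutrophil median lies at 1.36, and the tightly packed ribosomal and respiratory chain genes lie near 0.4 with no call.

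No gene of the protein C pathway or of the protease-activated receptors was called. Of 11 tested genes, 0 passed limma's adjusted threshold, 0 passed at an unadjusted p under 0.05, and the median was -0.06. Procr, the endothelial protein C receptor, read 1.70 and 0.46 log2 CPM in aPC hearts, against 1.16 and 1.40 in rivaroxaban hearts, and the groups overlapped. Its log2 fold change was -0.20 with an interval of -1.07 to 0.67. Thbd, which encodes thrombomodulin, read 6.56 and 6.58 log2 CPM in aPC hearts, against 6.38 in both rivaroxaban hearts (0.19, interval -0.55 to 0.93). F2r, the gene of protease-activated receptor 1, had a log2 fold change of 0.25 (interval -0.19 to 0.68). These intervals cover changes close to 2-fold for Procr and Thbd, so smaller differences were not detectable here. Of 15 tested coagulation and fibrinolysis genes, 0 were called and 2 passed at an unadjusted p under 0.05, 1 in each direction. F3, which encodes tissue factor, had 0.10 ± 0.25.

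Markers of smooth muscle and pericytes included 2 that were lower in aPC hearts. Myh11, the smooth muscle myosin heavy chain, read 4.95 and 4.79 log2 CPM in aPC hearts, against 6.52 and 6.86 in rivaroxaban hearts (-1.82 ± 0.25, adjusted p = 0.0144). Sham hearts, at 6.41 to 6.67, resembled rivaroxaban hearts, and untreated hearts lay between at 5.29 and 5.93. Notch3, a receptor of arterial smooth muscle and pericytes, read 5.02 and 5.0 log2 CPM in aPC hearts, against 6.37 and 6.21 in rivaroxaban hearts (-1.28 ± 0.19, adjusted p = 0.0177). Of 12 tested markers these were the only calls, and the list median was -0.15. Cnn1 (-1.35 ± 0.49) and Tagln (-1.02 ± 0.33), which encode smooth muscle proteins that bind actin, did not pass. Acta2 (-0.04 ± 0.42), Rgs5 (-0.15 ± 0.14) and Des (0.23 ± 0.17) had fold changes near 0. Of the 12 markers, 8 had a negative and 4 a positive fold change. At an unadjusted p under 0.05 by limma, 5 were lower and 0 higher. Their summed level, which follows the most abundant markers, was 5074 and 4869 CPM in aPC hearts and 4693 and 4824 CPM in rivaroxaban hearts. Both calls were kept after correction for gene length and GC content and were lost without any 1 of the 4 aPC and rivaroxaban libraries.

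In the fatty acid list, 2 genes were lower in aPC hearts. Slc27a1, a fatty acid transport protein, read 7.70 and 7.58 log2 CPM in aPC hearts, against 8.99 and 8.95 in rivaroxaban hearts (-1.33 ± 0.15, adjusted p = 0.00441). The rivaroxaban pair was above all other libraries in this gene. Cpt1a, a carnitine palmitoyltransferase that carries fatty acids towards the mitochondrion, read 5.81 and 5.74 log2 CPM in aPC hearts and 6.79 and 6.80 in rivaroxaban hearts (-1.02 ± 0.21, adjusted p = 0.0439). These were the only calls among 25 tested genes of fatty acid oxidation, and the median of the list was 0.15, above that of all tested genes. With quantile normalization the list median was -0.10, below that of all tested genes (0.05). Enzymes of the beta-oxidation spiral such as Echs1 (0.48 ± 0.15) and Hadh (0.39 ± 0.16) had positive fold changes that did not pass. Slc27a1 lost its call without aPC-792, Riva-313 or Riva-319. Cpt1a lost it without any 1 of the 4 libraries and without sham 006 or 007. The Cpt1a call was also lost with libraries centred on their median and with library totals that leave out Gm42418. The same held with limma-voom and after correction for gene length and GC content.

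Large gene families of energy and protein metabolism had small, uniform positive differences without a call in the main fit. Single members were called in some alternative fits. It was 5 of 24 fits for Cox6a1 and Ndufs8 (respiratory chain), Pdhb (tricarboxylic acid cycle), Rps2 (cytosolic ribosome) and Mrpl19 (mitochondrial ribosome). For the proteasome subunit Psmd8 it was 2 of 24. For 78 nuclear-encoded subunits of the respiratory chain the median log2 fold change was 0.46, 76 were positive, 62 passed at an unadjusted p under 0.05 and 0 passed after adjustment. The 20 tricarboxylic acid cycle genes were all positive (median 0.37), as were the 69 cytosolic ribosomal protein genes (median 0.39) and the 37 proteasome subunits (median 0.31). For 72 mitochondrial ribosomal proteins the median was 0.42, and 71 were positive. The median exon length was 1631 bases for respiratory chain genes, 1830 bases for cytosolic ribosomal genes and 3798 bases for tricarboxylic acid cycle genes, against 4415 bases over all tested genes. After correction for length and GC content the medians were 0.38 for respiratory chain, 0.34 for cytosolic ribosomal and 0.36 for tricarboxylic acid cycle genes, with 0.08 over all tested genes. The fold change also varied with expression level. Its median was -0.19 in the lowest of 5 bins of tested genes by mean log2 CPM and 0.17 in the highest. The part of this trend in the medians of the families was not tested. Heart muscle markers had a median of 0.37 with 0 of 10 called. They include Ckm, the muscle creatine kinase (0.69 ± 0.17, adjusted p = 0.0752), and Myl3, a myosin light chain (0.64 ± 0.20). Titin (Ttn, 0.02 ± 0.27) and the ryanodine receptor (Ryr2, 0.00 ± 0.19) had differences near 0.

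Of 24 tested regulators of splicing and RNA-binding factors, 3 were lower in aPC hearts (12.5%, against 1.33% of all tested genes). None was higher, and 20 had a negative fold change (median -0.46). Tra2a, an activator of splice sites, had a log2 fold change of -0.87 ± 0.15 (adjusted p = 0.0283). Luc7l2, a component of the U1 particle, had -0.76 ± 0.13 (adjusted p = 0.0286), and Clk1, a kinase of serine-rich splicing factors, had -0.97 ± 0.20 (adjusted p = 0.0462). Tra2a and Luc7l2 overlap annotated genes on the opposite strand, and the strand setting of the counting is not given. In 14 of the 24 genes the aPC libraries lay below the rivaroxaban libraries without overlap, where 30.3% of all tested genes did so. The count was 10 in the fit without both untreated libraries and 1 after correction for length and GC content, and 0 without any 1 of aPC-791, aPC-792, Riva-313, Riva-319, sham 003 and sham 006. Over all tested genes, 852 of 13410 were called lower in the fit without both untreated libraries, and 85 of 13541 after that correction. Clk1 also lost its call with the stricter filter on low values and with libraries centred on their median. The same held for Clk1 with library totals that leave out Gm42418 and with limma-voom. The median exon length of this list was 6868 bases.

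Zbtb16, a transcription factor induced by glucocorticoids, read 6.03 and 5.83 log2 CPM in aPC hearts, against 7.83 and 8.19 in rivaroxaban hearts (-2.08 ± 0.43, adjusted p = 0.0458). It was the only call among 17 tested glucocorticoid and FOXO response genes, whose median was -0.37. Per1 (-1.80 ± 0.47, adjusted p = 0.0894) and Per2 (-1.70 ± 0.43, adjusted p = 0.0828), repressors of the circadian clock that glucocorticoids also induce, did not pass. None of 16 tested clock genes was called. Untreated hearts were highest in Zbtb16, Per1 and Per2, at 8.59 and 8.90 for Zbtb16 and 7.73 and 9.07 for Per1. Hour of sampling is not in the labels. The Zbtb16 call was lost without aPC-791, aPC-792, Riva-313, Riva-319, sham 003 or sham 007. It was also lost with the stricter filter on low values, with library totals that leave out Gm42418, with limma-voom, and after correction for gene length and GC content, where the log2 fold change was -1.93.

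The largest falls belonged to genes of diverse roles. Kcnt1, a potassium channel gated by sodium, read -0.32 and -1.07 log2 CPM in aPC hearts, against 2.53 and 2.57 in rivaroxaban hearts (-3.25 ± 0.43, adjusted p = 0.012). Olfr78, an olfactory receptor also found in vascular smooth muscle, read -0.40 and -0.24 in aPC hearts, against 2.08 and 2.88 in rivaroxaban hearts (-2.80 ± 0.37, adjusted p = 0.012). The groups did not overlap in either gene. Untreated hearts were close to rivaroxaban hearts in Kcnt1, at 1.98 and 2.45, but close to aPC hearts in Olfr78, at 0.44 and 0.17. Olfr78 shares exons on its own strand with Olfr560, and reads of the pair may be mixed. Kcnt1 lost its call without aPC-792, Riva-313 or Riva-319, and Olfr78 without aPC-791, aPC-792 or Riva-319.

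Vsig2, a membrane protein with immunoglobulin domains, had a log2 fold change of -2.56 ± 0.30 (adjusted p = 0.0049). Lgals4, a galectin of gut epithelium, read 5.17 and 4.65 log2 CPM in aPC hearts, against 7.06 and 7.75 in rivaroxaban hearts (-2.49 ± 0.34, adjusted p = 0.0129), and rivaroxaban was the highest of the 5 groups. Atp8b5, a phospholipid flippase, read 0.22 and 0.37 in aPC hearts and 2.79 and 2.80 in rivaroxaban hearts, with 0.60 and -0.08 in untreated hearts. The mucin gene Muc6 had a log2 fold change of -2.48 ± 0.42, the RNA-binding protein gene Celf3 had -2.39 ± 0.39, and the noncoding Irx3os had -2.38 ± 0.42. Celf3 and Irx3os overlap other genes on the opposite strand. All 8 of these falls kept their call after correction for length and GC content, and all 8 lost it without aPC-792 and without Riva-319, with log2 fold changes between -3.62 and -1.14 over all alternatives. Atp8b5, Muc6, Celf3 and Irx3os also lost it without aPC-791, Riva-313 or sham 006, Irx3os without sham 003, and Lgals4 without aPC-791. The Muc6 call was also lost with limma-voom.

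The remaining rises complete the named genes. Ppp1r3c, which targets protein phosphatase 1 to glycogen, read 7.41 and 7.58 log2 CPM in aPC hearts, against 6.30 and 5.80 in rivaroxaban hearts (1.45 ± 0.26, adjusted p = 0.0298), and untreated hearts were lowest at 5.69 and 5.59. Foxo6os, a noncoding transcript beside Foxo6, had a log2 fold change of 1.51 ± 0.31 (adjusted p = 0.0439), with sham and untreated hearts near the level of aPC hearts. Ppp1r3c lost its call without any 1 of the 4 libraries or sham 007, and Foxo6os without any 1 of the sham, dabigatran, aPC or rivaroxaban libraries. Both were lost after correction for gene length and GC content, at log2 fold changes of 1.34 for Ppp1r3c and 1.42 for Foxo6os, and Foxo6os also with the stricter filter, the larger offset and limma-voom. Gnb1l, a protein of WD40 repeats, read 10.15 and 10.18 log2 CPM in aPC hearts, against 7.82 and 7.44 in rivaroxaban hearts (2.53 ± 0.28, adjusted p = 0.00384). It lost its call without aPC-792 or Riva-319, and it overlaps Rtl10 on the same strand. In the libraries without aPC, Gnb1l was highest in Dabi-202 (8.29) and lowest in Dabi-204 (7.25), which are also the highest and lowest of these 9 libraries in Gm42418, at 14.34 and 13.14 log2 CPM. Only these extremes were compared, and a link between Gnb1l and Gm42418 was not tested.

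Gm42418 itself was 2.58 ± 0.34 higher on the log2 scale in aPC hearts (adjusted p = 0.012). Its neighbour Gm26917 went the other way. Gm26917 spans positions 39843013 to 39846341 of chromosome 17 on mm10, upstream of Gm42418 (39846958 to 39848788) on the same strand. It read 4.76 and 4.66 log2 CPM in aPC hearts, against 6.94 and 7.04 in rivaroxaban hearts, and 6.62 to 7.53 in the other 7 libraries. Its log2 fold change was -2.28 ± 0.17 (adjusted p = 0.00109), the smallest adjusted p of the comparison, and it was called in 24 of 24 alternative fits, including that without Riva-319, where it was the single gene left. Scaling the libraries without Gm42418 raised the median log2 fold change of all genes to 0.10, and 31 genes were then called higher and 103 lower.

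**Figure D4:**
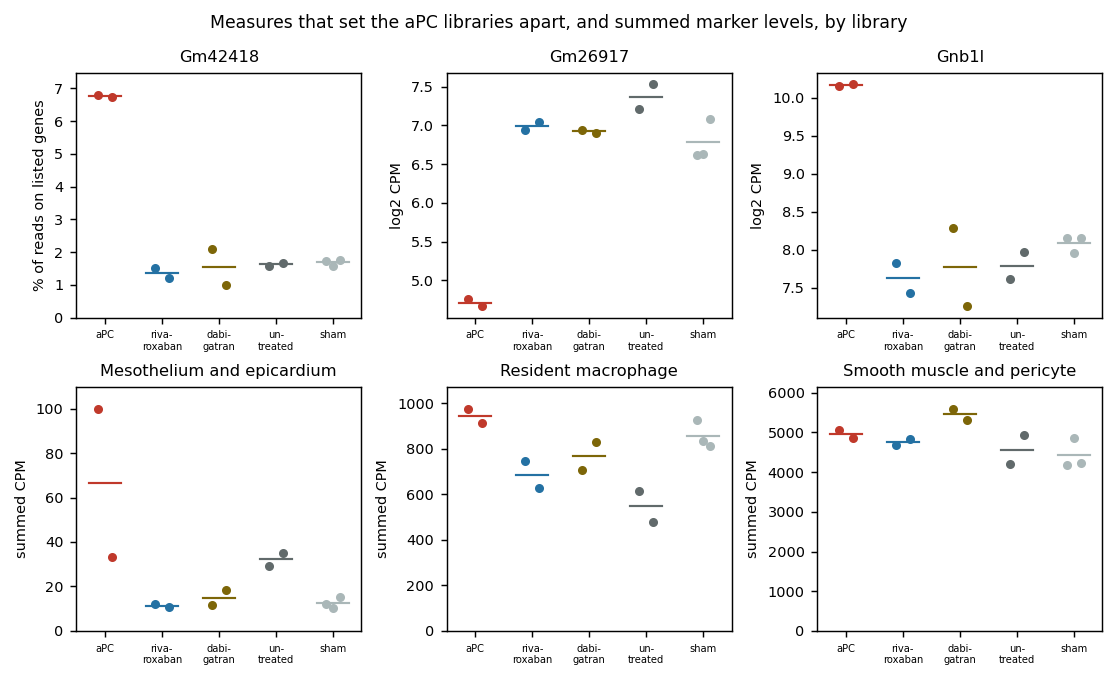
Upper panels show the share of reads on Gm42418 in percent and the levels of Gm26917 and Gnb1l in log2 CPM; lower panels show summed levels of 3 marker lists in CPM. Each point is a library and each bar a group mean. The aPC libraries (red) stand above all others in Gm42418 and Gnb1l and below all others in Gm26917.

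The fold change varied with gene length. The median log2 fold change was 0.20 among the genes with the shortest exons and -0.11 among those with the longest, when the tested genes were ranked in 5 equal bins. Calls in the lower direction took 0.70% of the shortest bin and 2.36% of the longest, while calls in the higher direction took 0.59% and 0.037%. Genes called lower had a median exon length of 6160 bases and genes called higher 2075 bases. In the bin of highest GC content 2.99% were called lower, against 0.41% in the lowest of 5 bins. Of 679 long noncoding genes, 18 were called lower (2.65%) and 2 higher (0.295%), with a median of -0.29. Over all tested genes 1.33% were called lower and 0.207% higher. An overlap with an annotated gene on the opposite strand was present in 80 of the 180 lower genes (44.4%) and in 7 of the 28 higher ones, against 43.9% of all tested genes. Among the named genes these included Sprr2a2, Krt8, Notch3, Tra2a, Luc7l2, Celf3 and Irx3os. When length and GC content were fitted out of each library, 20 genes were called higher and 85 lower, and 100 of these 105 were among the 208. The part of RNA quality or library preparation in these trends was not tested.

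**Figure D5:**
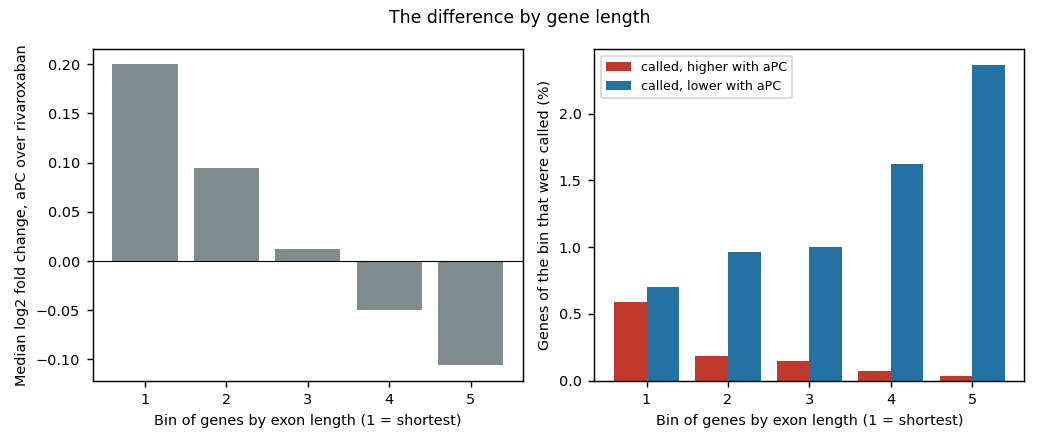
The left panel gives the median log2 fold change of aPC over rivaroxaban in each of 5 equal bins of genes by exon length, and the right panel the percentage of each bin called higher (red) or lower (blue). The median runs from 0.20 to -0.11, and the share called lower is 2.36% among the longest genes.

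Set against the untreated hearts, which both drug groups share as a reference, aPC hearts had 1007 genes higher (7.44% of those tested) and 1377 lower (10.2%). Rivaroxaban hearts had 544 genes higher than untreated (4.02%) and 603 lower (4.45%). Against sham hearts, aPC hearts had 17 genes higher (0.126%) and 142 lower (1.05%). Rivaroxaban hearts had 0 higher (0%) and 0 lower (0%) than sham by limma, with 380 and 381 at an unadjusted p under 0.05. The untreated pair varied most, so errors against it run small. For Lyz2 the log2 fold change against untreated was 2.30 for aPC and 1.18 for rivaroxaban, and for Slc27a1 it was -0.46 for aPC and 0.88 for rivaroxaban. For Acod1, which makes the macrophage metabolite itaconate and was named after its values were seen, it was -0.75 for aPC and -3.23 for rivaroxaban. For Kcnt1 it was -2.91 for aPC and 0.34 for rivaroxaban, and for Hspg2, the basement membrane proteoglycan perlecan, also named after its values were seen, -1.14 and -0.01. The Acod1 values rest on 57 reads in the aPC pair and 12 in the rivaroxaban pair, with 2 in Riva-313. The call of Acod1 between aPC and rivaroxaban hearts was lost after correction for gene length and GC content.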

How the data were processed

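Polyadenylated RNA of mouse hearts was made into libraries with a directional kit from 500 ng of total RNA, per the labels' protocols. The authors deposited log2 CPM values scaled by TMM, a trimmed mean of log ratios between libraries. The tools, per the submitters' processing notes, were STAR, edgeR, Trim Galore, FastQC and bcl2fastq, with genome build mm10. Not given in the sources used here are the counter, annotation, strand setting and filter. The table holds 11 libraries, and 4 of the 15 samples were not analysed here. Taken back from the log2 scale, 100% of the deposited values were whole multiples of 1 read, to within 0.05 of a read.

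Genes with at least 0 log2 CPM in at least 3 libraries were tested with limma-trend (limma 3.58.1, R 4.3.3), two-sided, in 1 fit of 5 group means over the 11 libraries (15 were planned). The adjusted p is Benjamini-Hochberg over 13541 genes, and calls are at 0.05. Values after ± are standard errors of a log2 fold change, and intervals are 95%. Fold changes near the level of 3 reads (-2.83 to -2.41 log2 CPM) are understated, because a small count was added before the log. Exon lengths, GC content and overlaps are from GENCODE M21. The procedure was tested on simulated data.

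The comparison, its members, the gene lists, the tests and the rule for named genes were chosen with earlier results of these data known. The rule takes the 8 largest rises and 8 largest falls among called genes without overlap between the 2 groups whose mean is at least 1 log2 CPM in the higher group, without predicted genes. It adds up to 3 members of each list by smallest p and a fixed set of inflammation, stress and coagulation genes. Genes given with values outside it are other members of the lists described, as examples, or are said to be chosen after their values were seen. Of 48 lists, 46 had a tested member and 14 a called one. Alternatives were other filters, scalings, weights, a voom fit on recovered reads, a minimum fold, a larger offset, a correction for length and GC content, the 4 libraries alone, and each library left out. The fit without both untreated libraries was added after the data were seen. Some genes that the rule takes are left out of the text.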

Additional observations from a re-analysis of the deposited data

How the results depend on the processing

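The 208 calls between aPC and rivaroxaban hearts became 1947 with the 4 libraries alone, 3219 with library weights, 134 with library totals without Gm42418, 105 after correction for length and GC content, 117 with voom on recovered reads, 3 with a minimum fold of 1.5 and 1195 without both untreated libraries, which was added after the data were seen. With single libraries left out the count ran from 1 (without Riva-319) to 1198 (without Cont_19), and it was 14 without aPC-791, 12 without aPC-792, 11 without Riva-313, 1185 without Cont_17, and 69, 43 and 86 without sham 003, 006 and 007. The share of calls that were lower was 86.5%, against 60.0% with the 4 libraries alone, 71.3% without both untreated libraries, 76.9% without Gm42418 and 53.0% with weights. Of the 105 genes called after correction, 100 were among the 208. For aPC against untreated the 2384 calls became 234 with weights and 135 with the minimum fold, and ran from 221 (without aPC-792) to 5218 (without Cont_17). For rivaroxaban against untreated the 1147 calls became 37 with weights and 52 with the minimum fold, and ran from 42 (without Riva-313) to 5006 (without Cont_17). The other filters, median centring, quantile scaling, the robust prior and the larger offset kept all 3 counts within 1.5 times. No called named gene changed direction in any alternative. The cause of these differences was not tested beyond the libraries and genes each alternative leaves out. No paired analysis was possible because no replicate number is shared between groups. Depth limits genes near 0 log2 CPM, and 2 libraries a group limit all others.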

Other observations

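Lists not described above held few calls. Of 16 tested oxidative stress genes, Gpx1, a glutathione peroxidase, was called higher in aPC hearts (log2 fold change 0.88 ± 0.19, adjusted p = 0.0499), with a list median of 0.36. It read 7.05 and 6.67 log2 CPM in aPC hearts, against 5.86 and 6.10 in rivaroxaban hearts. Of 9 lymphatic endothelium and endocardium genes, Npr3, a natriuretic peptide receptor, was called higher, at 5.26 and 5.10 log2 CPM in aPC hearts against 4.38 and 4.41 in rivaroxaban hearts. Of 5 atrial genes, Nr2f2, a transcription factor of atrial muscle, was called lower (-0.82 ± 0.16, adjusted p = 0.04). All 3 calls were lost without any 1 of the aPC, rivaroxaban or sham libraries, and those of Gpx1 and Npr3 also without either dabigatran library. The Nr2f2 call was also lost with libraries centred on their median, with library totals that leave out Gm42418, with limma-voom, and after correction for gene length and GC content, where the log2 fold change was -0.71. Gpx1 also lost its call with no filter and with the stricter filter on low values, with quantile normalization, a robust prior and limma-voom, and kept it after correction for gene length and GC content (0.84), as did Npr3 (0.88). Heat shock chaperones (16 of 16 positive, median 0.41) and chaperones of the endoplasmic reticulum (15 of 16 positive, median 0.47) had no call. Among tested markers of other cell types, 0 of 6 B cell, 0 of 2 T and NK cell, 0 of 6 platelet, 0 of 4 skeletal muscle and 0 of 12 fibroblast genes passed limma's adjusted threshold, with 1 fibroblast gene and 0 of the others at an unadjusted p under 0.05, and no adipocyte marker passed the filter on low values.

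Of further inflammation and stress genes, none passed: the log2 fold change of aPC over rivaroxaban was 1.54 ± 0.76 for Il6, 1.46 ± 0.56 for Tnf, 1.34 ± 0.49 for Cxcl2, 0.37 ± 0.37 for Nppa, 1.90 ± 1.07 for Nppb and -0.58 ± 0.33 for Myh7. Npr3 and Nr2f2 overlap genes on the opposite strand.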
